A study of Mus musculus with 4 samples.

Results

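Epithelial clone E2 was compared with epithelial clone E1, gene by gene, as the difference of their log2 expression levels (E2 minus E1). These are 2 of the 4 clonal lines measured, and the comparison covers 19938 genes, each read from a probe set that is listed with a single gene symbol (21789 such probe sets among 35556 on the array). The lines share their source, a mammary tumor that arose spontaneously in a female FVB Tg MMTV/neu mouse (FVB/N in the methods), which carries rat ErbB2 (neu) driven in the mammary gland by the mouse mammary tumor virus promoter. E1 and E2 were derived from sorted cells with high CD24 and high neu, and both were grown in RPMI with 20% serum. M1 and M2, the mesenchymal-like lines used here only to show where the remaining clones lie, were derived from cells with low CD24 and low neu and were grown in MEGM with 2% serum, pituitary extract, epidermal growth factor, insulin and hydrocortisone, so that for them the type of cell cannot be told apart from the medium. Each line is 1 clone obtained by limiting dilution, and each was hybridised to 1 array. No difference could therefore be tested, a difference between E1 and E2 cannot be told apart from a difference between their cultures, RNA preparations or arrays, and each value below describes these arrays. The study also introduced virally delivered reporters into E cells, of which its methods name E2, and into M cells. The sources used here do not state whether the cells on any of the arrays carried them.

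Genes of the interferon response made up 43.2% of the genes at least 4-fold higher in E2 than in E1. Interferons are cytokines that cells release on sensing foreign nucleic acid, and they signal through paired cell surface receptors, Jak kinases and Stat factors. A complex of Stat factors with Irf9 binds a short DNA element, the interferon-stimulated response element, before the genes it switches on. Products of these genes sense or degrade viral RNA, block its translation, tag proteins with Isg15 and load peptides on MHC class I molecules, and tumor cells can hold part of this program without infection.

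The promoters below are shown because they belong to genes of this response with differences of at least 8-fold between the clones and hold the core letters of that element. They are stretches of mouse RefSeq promoters (GRCm38.p6, the C57BL/6J reference and not the genome of the FVB/N strain of these cells), written on the sense strand and ending at or before the listed transcription start. Capitals mark each match to GAAANNGAA or to its reverse complement, and adjoining capitals hold overlapping matches.

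Ifit1, chr19:34640750-34640843, + strand: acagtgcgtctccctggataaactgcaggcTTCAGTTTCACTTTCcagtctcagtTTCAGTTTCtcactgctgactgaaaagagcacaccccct

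Ddx60, chr8:61928004-61928086, + strand: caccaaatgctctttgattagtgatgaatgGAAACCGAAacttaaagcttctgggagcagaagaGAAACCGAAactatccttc

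Ifit3, chr19:34583344-34583465, + strand: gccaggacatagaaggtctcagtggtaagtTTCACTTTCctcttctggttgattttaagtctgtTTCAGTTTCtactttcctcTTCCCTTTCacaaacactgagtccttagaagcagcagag

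Oas3, chr5:120777690-120777764, - strand: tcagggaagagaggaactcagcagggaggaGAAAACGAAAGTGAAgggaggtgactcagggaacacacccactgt

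Gbp3, chr3:142559970-142560043, + strand: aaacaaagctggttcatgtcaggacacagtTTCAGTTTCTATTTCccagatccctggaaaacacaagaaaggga

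Rsad2, chr12:26456533-26456601, - strand: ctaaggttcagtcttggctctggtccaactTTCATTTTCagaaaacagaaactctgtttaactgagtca

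Most genes differed little between the clones. The median difference over all genes was 0.02, the 5th and 95th percentiles were -0.46 and 0.42, and 94.3% of genes lay within 1.5-fold. E2 was at least 2-fold higher than E1 in 232 genes (1.16% of all genes) and at least 2-fold lower in 195 (0.978%), and at least 4-fold higher in 81 and lower in 42. Counted over probe sets instead of genes, 1.17% were at least 2-fold higher and 0.945% lower, and 0.395% were at least 4-fold higher and 0.197% lower. The larger differences were thus more often toward a higher level in E2, although E2 lay above E1 in only 53.1% of all genes and in 45.2% of the 11853 genes with a level above the median of the file (6.78 on the log2 scale) in either clone. Among the 12146 probe sets with no gene listed, which enter no count here, 7.71% were at least 2-fold apart. The median of the file serves here as the bound between dim and bright values, since the background of the arrays is not known. Where the lower level of a pair lies near or under it, the fold compares listed values and can differ from that of the transcripts.

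**Figure D1:**
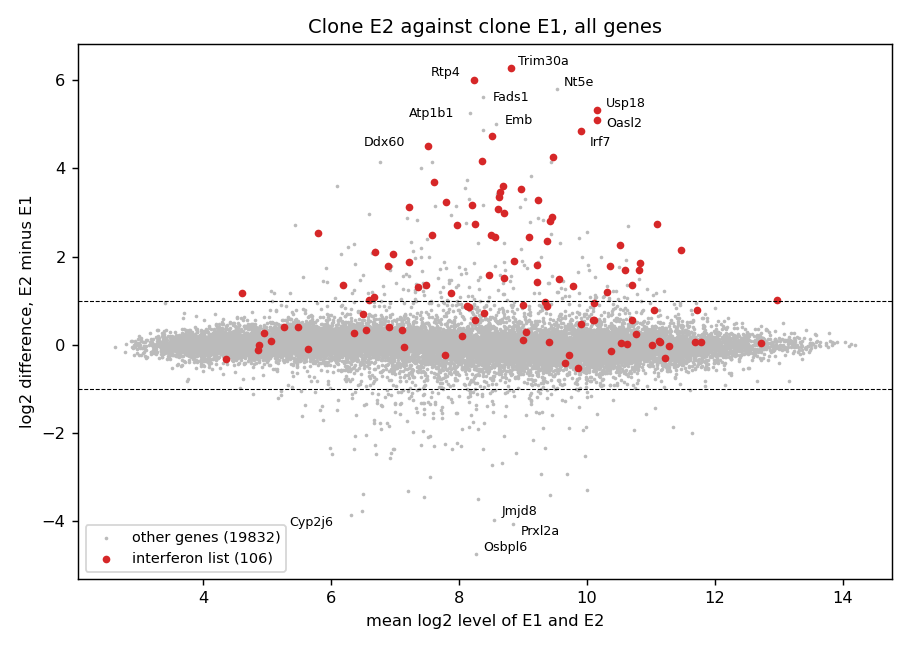
Each point is a gene, with the mean log2 level of E1 and E2 on the horizontal axis and the log2 difference E2 minus E1 on the vertical axis, and dashed lines mark a 2-fold difference. The 106 genes of the interferon list (red) fill much of the upper part of the plot, with 58 at or above the upper line and 0 at or below the lower line, while the remaining genes (grey) lie mostly within 0.5 of 0.

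Both clones carried most of the epithelial markers of their label. Cdh1, which encodes E-cadherin, was at 12.15 in E1 and 12.31 in E2, against 6.70 in M1 and 6.51 in M2. The surface adhesion protein Epcam was at 12.70 and 12.76, and the splicing regulator Esrp1 at 11.42 and 11.74. Of 10 epithelial markers 9 lay within 2-fold between the clones, and Krt19, at 6.40 and 6.33, was dim in both. Krt8 and Krt18 did not separate the clones from M1 and M2. Krt8 was at 13.27, 13.60, 13.44 and 13.69 in E1, E2, M1 and M2, and Krt18 at 13.47, 13.69, 13.12 and 13.48. Among 6 mesenchymal markers only the N-cadherin gene Cdh2 was 2-fold apart, at 7.75 in E1 and 5.99 in E2 with 12.22 and 11.73 in M1 and M2. Zeb1, Zeb2 and Twist1 were lower in both clones than in M1 and M2. Vim and Fn1 were bright in the clones too. Vim was at 12.79, 13.10, 13.72 and 13.82 in E1, E2, M1 and M2, and Fn1 at 13.57, 12.74, 13.36 and 13.27. The transcripts of the sorting markers were close between the clones, with Erbb2 at 11.83 and 11.95 and Cd24a at 11.61 and 12.15. In M1 and M2 Erbb2 was at 10.58 and 11.03 and Cd24a at 12.39 and 12.53, the latter above both clones. These are RNA levels on a mouse array, while the cells were sorted on surface protein, for neu with a rat-specific antibody. How far the Erbb2 probe set reads the rat transgene is not known here. Markers of cells that might accompany a tumor line were at similar levels in the clones. The 7 immune markers lay between 5.08 and 6.73 in E1 and between 5.59 and 6.90 in E2, the 5 endothelial markers between 4.65 and 5.99 and between 4.41 and 6.15, and the 6 fibroblast markers between 3.93 and 7.78 and between 3.89 and 7.83. In these marker groups 0 genes differed by 2-fold. Over all genes 1.16% were at least 2-fold higher and 0.978% lower, so that groups of this size would hold few or none. In the longer lists of such markers 2 genes did, both lower in E2. They were the lysosomal Cd68, at 10.66 and 8.77 in E1 and E2, and the matrix protein gene Postn, at 7.74 and 5.83.

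Interferon-stimulated genes were higher in E2 as a group. The 6 lists hold 127 genes, receptors, kinases and adaptors of the pathway among them, and 106 were measured. Of these 106, 58 were at least 2-fold higher in E2 and 0 lower, against 1.16% and 0.978% of all genes. The same shares apply to the counts of the separate lists below. At least 4-fold higher were 35 of the 106, and at least 16-fold 9. The median difference of the 106 was 1.19 (0.02 over all genes), and 95 of them lay above 0. They made up 25% of all genes at least 2-fold higher in E2 and 43.2% of those at least 4-fold higher.

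Irf7, the transcription factor that amplifies interferon production, was at 7.49 in E1 and 12.33 in E2, with 7.97 in M1 and 6.69 in M2, which is 28.7-fold higher in E2 than in E1. Oasl2, a member of the 2-5A synthetase family, was at 7.61, 12.70, 8.87 and 7.08 in the same order, 34.1-fold higher. Ddx60, a helicase linked to RNA sensing, was at 5.27, 9.78, 5.38 and 5.34, 22.8-fold higher. For these 3 genes E2 stood alone, and E1 lay with the mesenchymal-like lines. Ddx60 was under the median of the file in every line but E2.

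Among the transcription factors and signaling genes the difference lay in a few members. The de-ISGylase Usp18, which also restrains signaling at the interferon receptor, was at 7.50 in E1 and 12.82 in E2, with 9.27 in M1 and 7.17 in M2 (39.9-fold). Stat2 was at 7.91 in E1 and 9.81 in E2, and its partner Irf9 at 9.76 and 11.45, differences of 1.90 and 1.69. Irf1, an early factor of the interferon-gamma response, was at 7.94 and 9.47. With Irf7 these were the 5 of 22 measured members at least 2-fold higher, and the median of the list was 0.27. The receptors, kinases and adaptors before them differed little. Ifnar1 and Ifnar2, the subunits of the type I interferon receptor, had differences of -0.14 and 0.09, and Jak1 and Tyk2, the kinases bound to them, of 0.07 and 0.11. The adaptors Mavs and Sting1, which carry the signals of RNA and DNA sensors, had differences of -0.03 and -0.30, and the factor Irf3, which acts after them, of -0.40. Irf8 had the lowest difference of the whole interferon list, -0.52.

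The 5 interferon genes with a named probe set were dim in every line, and the other interferon genes were not analysed here. These genes were named after their values were seen. Ifnb1 was at 5.19 in E1 and 5.39 in E2, Ifna4 at 5.36 and 5.44, Ifna2 at 6.63 and 6.73, Ifnk at 4.41 and 4.48 and Ifne at 5.80 and 5.70, all under the median of the file.

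Sensors of nucleic acid followed, with 9 of 21 at least 2-fold higher and a median of 0.73. The RIG-I-like helicase Ifih1 (MDA5) was at 8.02 in E1 and 10.83 in E2, with 8.95 in M1 and 7.26 in M2. Its relative Dhx58 (LGP2) was at 7.21, 10.75, 8.45 and 8.13, and Ddx58 (RIG-I) at 9.96, 11.66, 10.28 and 9.78. Zbp1, a sensor of Z-form nucleic acid, was at 6.95, 10.29, 6.92 and 6.58. In each of these 4 genes E2 was the highest line. Eif2ak2, the RNA-activated kinase PKR, was 2.68-fold higher in E2 and the DNA sensor Cgas 2.01-fold. The Toll-like receptors Tlr3 and Tlr4, which sense microbial products in endosomes and at the surface, were nearly even, with Tlr3 at 11.67 and 11.73 and Tlr4 at 9.37 and 9.44 in E1 and E2.

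The 2-5A synthetases and schlafens were the list with the highest median, 1.89, with 10 of 15 at least 2-fold higher. 2-5A synthetases make the oligoadenylates that switch on RNase L. Oas3 was at 6.27 in E1 and 10.44 in E2, with 7.05 in M1 and 7.53 in M2, and Oas2 at 6.19, 9.42, 6.53 and 6.27. Oas1a was at 7.22, 10.21, 7.87 and 8.18, so that all synthetases named had E2 as the highest line. Schlafens are regulators of growth and RNA cleavage, and some of them had another order. Slfn2 was at 6.88 in E1 and 10.49 in E2, with 10.42 in M1 and 8.83 in M2, and Slfn8 at 6.33, 8.83, 8.95 and 8.88. For these genes E1 was the low line and M1 was close to E2. Slfn4, a member of the run described below, was high in E2 alone, at 6.09 and 8.41 in E1 and E2 and 5.92 and 6.28 in M1 and M2, and Slfn1 and Slfn5 were dim and even in all lines.

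Of the 34 inhibitors of viral translation, entry and budding, 25 were at least 2-fold higher in E2 (median 1.81). Ifit1, which binds foreign 5′ RNA ends, was at 6.15 in E1 and 10.90 in E2, with 8.70 in M1 and 6.58 in M2. Ifit3 was at 7.34, 11.61, 8.48 and 6.10, and the receptor chaperone Rtp4 at 5.23, 11.24, 8.29 and 6.81. Thus E2 was highest, M1 second and E1 or M2 lowest in each of them. Rsad2 (viperin) was at 6.62, 9.80, 6.50 and 5.98, and the dynamin-like GTPases Mx1 and Mx2 were 4.19-fold and 5.84-fold higher in E2 than in E1. Bst2 (tetherin) was 5.47-fold higher. Ifitm3, an inhibitor of viral fusion, was already bright in E1 at 12.46 and was 2.01-fold higher in E2, while Ifitm2, at 12.69 and 12.74, was not. Trim30a had the largest difference of any gene that was bright in either clone, at 5.68 in E1 and 11.95 in E2, with 11.28 in M1 and 10.37 in M2 (77.2-fold). Here E1 was the exception and E2 lay with the mesenchymal-like lines.

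The enzymes of Isg15 conjugation and the interferon-inducible GTPases completed the picture. Ube2l6, which passes Isg15 to its ligases, was at 6.61 in E1 and 9.33 in E2, with 8.97 in M1 and 7.40 in M2, and the ligase Herc6 at 8.20, 10.55, 9.34 and 8.06. Of 9 GTPases measured, 7 were at least 2-fold higher in E2 (median 1.57). Gbp3, a guanylate-binding protein of intracellular defence, was at 7.59, 10.88, 7.36 and 6.86, and Iigp1 at 5.76, 9.45, 5.77 and 4.96. Irgm1 was at 9.46, 11.25, 9.32 and 8.32, and for these 3 GTPases M2 was the lowest line.

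**Figure D2:**
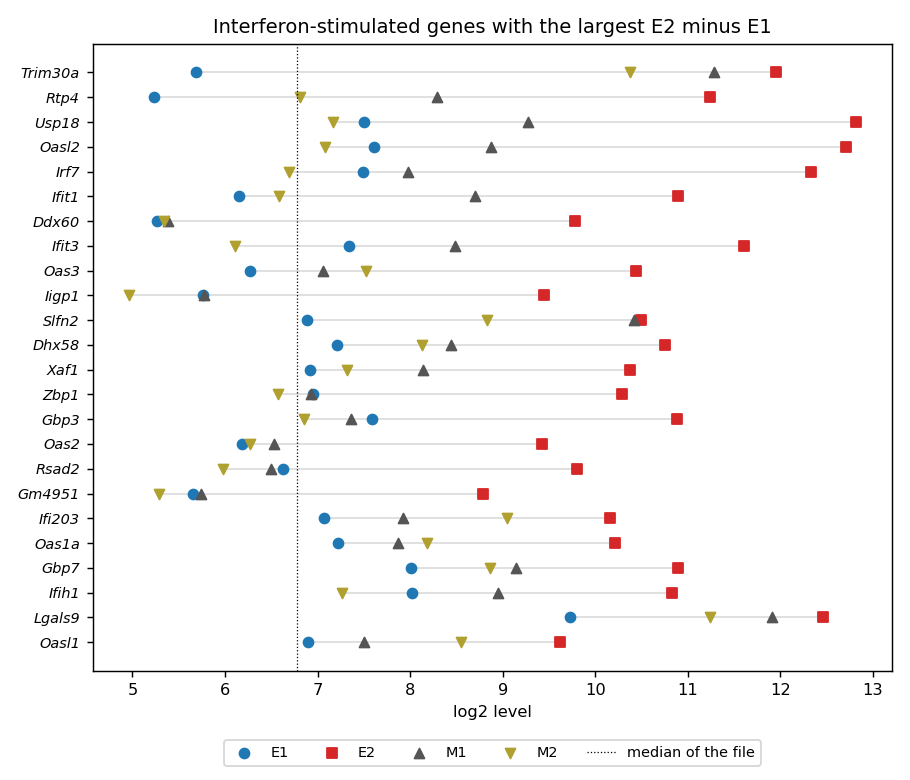
The log2 level of the 24 interferon-stimulated genes with the largest difference is plotted for each line (blue circles E1, red squares E2, grey upward triangles M1, ochre downward triangles M2), 1 array each, with the median of the file as a dotted line. E2 is the highest line in every gene shown, from 8.79 for Gm4951 to 12.82 for Usp18, and the mesenchymal-like lines lie mostly between the clones or beside E1.

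Over the 58 interferon-stimulated genes at least 2-fold higher in E2, E2 was the highest of the 4 lines in 53. In the other 174 genes at least 2-fold higher in E2 it was the highest in 121. Over all genes, which were not chosen for a high level in E2, the share was 24.6%, so that much of either count comes with the choice of genes. Among the 58 genes M1 lay above E1 in 49, with a median of 0.62 for M1 minus E1, and was at least 2-fold above it in 21. M2 lay above E1 in 32 and below it in 26, with a median of 0.08, and was at least 2-fold above it in 10. The choice of genes with E1 below E2 favours a low E1, so that these counts also come in part with the choice. The shares over all genes were not counted. M1 exceeded M2 in 50 of the 58 genes. E2 was at least 4-fold above each other line in 21 of them. The levels of E1 were dim for many, with 21 of the 58 under the median of the file.

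The response was shared by neighbouring genes of the same families. Runs were sought in the gene order of the GRCm38.p6 annotation among detected genes, those above the median of the file in either clone. In 5 runs at least 4 adjacent detected genes differed by 1.5-fold or more in the same direction, 24 genes in all. Genes dim in both clones were skipped and could not break a run. Genes bright only in E2 could enter, such as Ifit1bl2 (4.07 in E1, 6.80 in E2) and Gbp11 (5.52 and 6.87), so that the filter favours such runs. Of the runs, 4 were interferon-stimulated families. They were 6 schlafens, 5 Ifit genes, 5 Oas genes and 4 guanylate-binding protein genes. In the Ifit run the differences were 0.87 for Ifit2, 4.27 for Ifit3, 3.60 for Ifit3b, 2.72 for Ifit1bl2 and 4.74 for Ifit1. Members of such families are similar in sequence, and probe sets of near-identical copies can share signal, so that neighbours in a run are not independent readings. The only run that was lower in E2 was that of the glutathione transferases Gstm6, Gstm3, Gstm2 and Gstm1, enzymes of detoxification, with differences of -0.74, -0.68, -0.86 and -1.15. Gstm1 was at 10.64 in E1 and 9.49 in E2, and at 12.47 in M1 and 12.28 in M2.

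The letters of the response element were more frequent in the promoters of the genes that were higher. RefSeq promoters (250 bases before to 50 after the start) were at hand for 41 of the 58 interferon-stimulated genes at least 2-fold higher in E2, and 25 of these (61.0%) held GAAANNGAA on either strand. Among the interferon-list genes under 2-fold, 7 of 39 (17.9%) held it. The share was 15.1% in the other genes at least 2-fold higher, 13.1% in the genes at least 2-fold lower, 9.20% over all measured genes with a promoter and 8.56% over all promoters of the table. TTCNNNGAA, the core of the gamma-activated site bound by Stat dimers, was in 14.6% of the 41 promoters, in 30.8% of those of the interferon-list genes under 2-fold (12 of 39) and in 8.99% of those of all measured genes. The promoters of Irf7 and Oasl2 held no match to the first motif in this window. A match of these letters is a description of the sequence, and binding was not measured. The lists were assembled from genes known to respond to interferon and from components of the pathway. Components such as Ifnar1, Jak1 and Mavs are in the group under 2-fold, so that the shares of the 2 groups compare unlike genes in part. A high share of the element among the higher genes is therefore no independent reading.

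Antigen presentation by MHC class I differed in part. Of 20 members 6 were at least 2-fold higher in E2, against 1.16% of all genes, and the median was 0.33. Psmb8, a catalytic subunit of the immunoproteasome, was at 6.51 in E1 and 9.81 in E2, with 8.93 in M1 and 8.16 in M2. Its partner Psmb9 was at 7.56, 9.09, 8.51 and 8.36, and the peptide transporter Tap1 at 8.91, 10.36, 9.46 and 8.71. In these genes E1 or M2 was the low line. The class I heavy chain H2-Q4 was 6.90-fold higher in E2, with the reserve that MHC heavy chain genes are near-identical copies. The light chain B2m was bright in both clones, at 13.11 and 13.37, and the chaperones Calr, Canx and Pdia3 had differences of -0.15, -0.04 and -0.04. Of 15 class II and costimulation genes 0 were 2-fold apart. At the shares over all genes, 1.16% higher and 0.978% lower, a list of this size would hold few or none.

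Among 41 chemokines and cytokines 5 were at least 2-fold higher in E2 and 0 lower, against 1.16% and 0.978% of all genes. Ccl5, an attractant of T cells, was at 7.37 in E1 and 11.50 in E2, with 9.84 in M1 and 7.75 in M2 (17.6-fold). The death ligand Tnfsf10 (TRAIL) was at 6.31, 8.50, 5.32 and 5.36, and Cxcl10, an attractant of activated T cells, at 5.73, 7.19, 6.42 and 5.93. E2 was again the highest line. Of 24 genes of the NF-kappa-B pathway only Cd14, a co-receptor for bacterial lipopolysaccharide, differed by 2-fold, at 9.12 in E1 and 10.91 in E2. The median of that list was 0.08, and at the shares over all genes it would hold few or none.

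**Figure D3:**
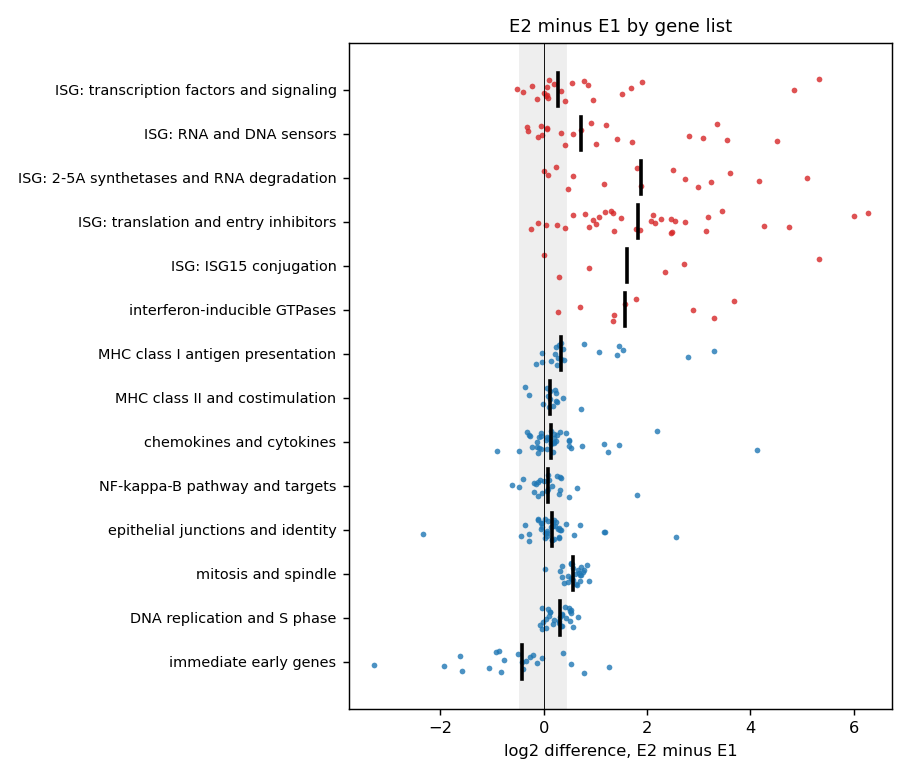
Each point is a gene of a list named on the vertical axis, placed by its log2 difference E2 minus E1, with black bars at the medians and a grey band from the 5th to the 95th percentile of all genes (-0.46 to 0.42). ISG stands for interferon-stimulated genes. The interferon lists (red) reach far to the right of the band, the mitosis list is shifted as a block to a median of 0.57, and the immediate early genes lie to the left with a median of -0.42.

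Outside these families a set of single genes had differences as large. Nt5e (CD73), the enzyme that makes extracellular adenosine, was at 6.63 in E1 and 12.42 in E2, with 10.07 in M1 and 11.59 in M2 (55.4-fold). The desaturase Fads1, which acts in the synthesis of polyunsaturated fatty acids, was at 5.58, 11.19, 12.98 and 12.04, and the mitochondrial folate enzyme Aldh1l2 at 5.94, 10.81, 12.17 and 11.90. Casp1, the inflammasome protease, was at 4.69, 8.84, 10.25 and 11.63. In these 4 genes E1 was the low line and the other 3 were high. Atp1b1, a subunit of the sodium pump, was at 5.55 in E1 and 10.81 in E2, with 10.74 in M1 and 6.32 in M2, which put E1 with M2. Emb (embigin), a partner of monocarboxylate transporters, was at 6.07, 11.08, 4.39 and 4.44 and was high in E2 alone. The receptor Notch1, with 9.88-fold, had the same order as Fads1, at 7.37 in E1 against 10.68 in E2 and 10.74 in M2, with M1 above these.

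Genes lower in E2 fell into the same kinds of pattern. Osbpl6, an oxysterol-binding protein, was at 10.65 in E1 and 5.90 in E2, with 5.80 in M1 and 5.75 in M2 (27.0-fold), and the zinc finger gene Zfp518a at 8.36, 4.60, 3.86 and 3.81. These were high in E1 alone. Jmjd8 was at 10.54 in E1 and 6.57 in E2, with 12.17 in M1 and 11.37 in M2, and Prxl2a, a peroxiredoxin-like protein, at 10.89, 6.82, 10.98 and 11.87. The cytochrome P450 gene Cyp2j6 was at 8.24, 4.38, 8.90 and 8.89, and the developmental regulator Eya1 at 9.18, 5.73, 8.19 and 8.44. For these genes E2 was the low line. The metallothionein Mt1, which binds zinc and is induced by glucocorticoid, was at 11.13, 7.73, 12.93 and 13.41, and the caveolar coat gene Cav1 at 11.16, 8.22, 12.40 and 11.95. Car9, a carbonic anhydrase induced by hypoxia, was at 9.74 in E1 and 7.67 in E2, with 6.92 in M1 and 7.67 in M2. Among the 30 glycolysis and hypoxia genes, Car9 included, the median was 0.06, and Ddit4, a hypoxia-induced inhibitor of mTORC1 signaling, was 2.56-fold higher in E2. The remaining genes among the 15 farthest apart in this direction were Klhl22, Bhlhb9, Chic1, Steap1, P2rx7 and Serpinf1, from 6.67-fold to 11.2-fold lower in E2, and Fosb, described below.

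**Figure D4:**
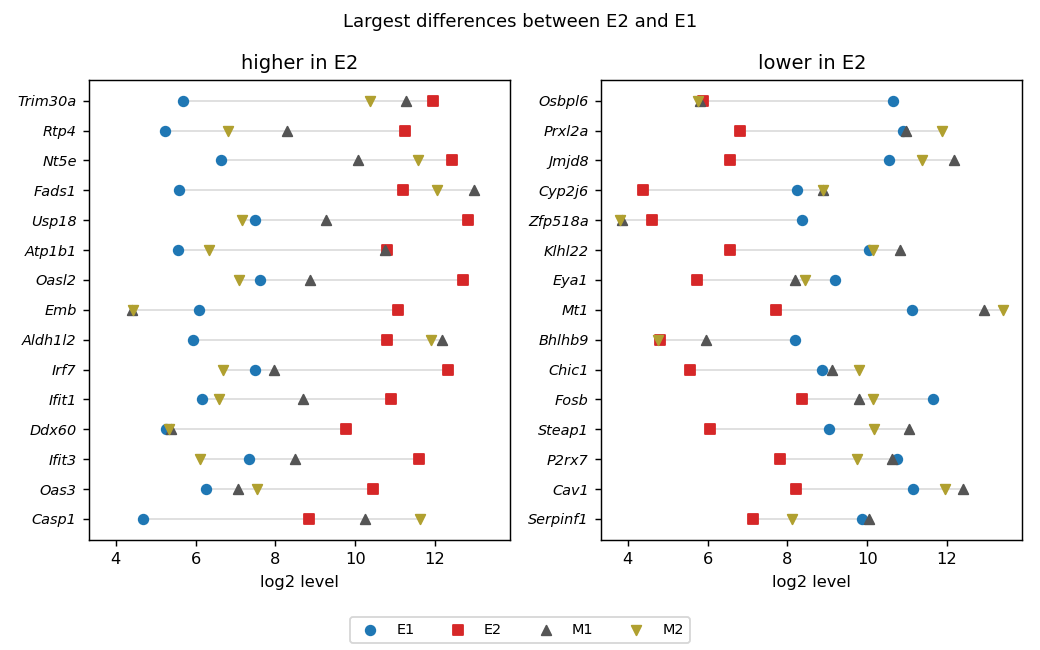
The log2 level of the 15 genes with the largest difference in each direction is plotted for the 4 lines, 1 array each, with genes higher in E2 on the left and lower on the right. In genes such as Fads1 and Aldh1l2 E1 is the line that stands apart, in Ddx60, Emb, Jmjd8 and Cyp2j6 it is E2, and in Osbpl6 and Zfp518a it is E1 again.

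In the genes that were higher in E2, both mesenchymal-like lines lay nearer to E1 more often than to E2. Of these 232 genes both M lines lay nearer to E1 in 125, both nearer to E2 in 58, and they were divided in 49. Within the interferon list the counts were 40, 7 and 11, and in the other 174 genes 85, 51 and 38. In the 195 genes lower in E2 they were 90, 70 and 35. The shares over all genes were not counted. The genes were chosen for a difference between E1 and E2, and where E1 is dim, M lines that are dim as well lie nearer to E1. How far these counts come with that choice was not tested. By a stricter count chosen after the data were seen, E2 was at least 4-fold above each other line in 39 genes, 21 of them in the interferon list. Ifit3b, Ifit1bl2 and Slfn4, relatives of list members, were among the 39 but are not in the list. E1 was at least 4-fold below each other line in 16. In the lower direction E2 was at least 4-fold below each other line in 18 and E1 at least 4-fold above each in 14. By this count both clones had genes of their own. Within the interferon list E2 was the line apart in 21 genes and E1 in 2. Genes outside the interferon list with E2 at least 4-fold above each other line included the neutrophil surface antigen gene Cd177, at 7.21 in E1 and 11.04 in E2. Others were the phosphate transporter Slc34a2, at 6.79 and 9.95, and the tight junction claudin Cldn4, at 8.72 and 11.28. For Cldn4 E1 also lay above M1 and M2, which were at 6.83 and 7.22. The decoy death receptors Tnfrsf22 and Tnfrsf23 were low in E2 alone, at 8.75 and 8.16 in E1, 6.46 and 5.70 in E2 and between 9.89 and 11.96 in the M lines. Cd177, Slc34a2, Tnfrsf22 and Tnfrsf23 were named after their values were seen.

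Mitosis and DNA replication genes were slightly higher in E2 as lists, with no member at 2-fold. All 27 mitosis and spindle genes lay above 0, against 45.2% of detected genes, with a median of 0.57 and a range from 0.02 (Ndc80) to 0.87 (Bub1b). The proliferation marker Mki67 was at 10.04 in E1 and 10.71 in E2, with 11.39 in M1 and 11.04 in M2. The mitotic kinase Plk1 was at 10.49, 11.21, 11.59 and 11.29, and topoisomerase Top2a at 10.18, 11.01, 11.25 and 11.11. E1 was the lowest line in each, and over the list the medians of M1 minus E1 and M2 minus E1 were 1.10 and 1.00. For DNA replication genes 24 of 28 lay above 0, with a median of 0.31, from -0.07 (E2f1) to 0.66 (Mcm6). The third cell cycle list, of G1 cyclins and Cdk inhibitors, had a median of 0.09 with 11 of 18 members above 0, and 1 member, Mycn, was 2.06-fold higher in E2.

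The immediate early genes, transcription factors and phosphatases that cells switch on within minutes of a stimulus, lay the other way. Of 21 members 17 were below 0 and 4 above it (median -0.42), while 45.2% of detected genes lay above 0. In this list 5 were at least 2-fold lower in E2 and 1 was higher, against 0.978% and 1.16% of all genes. Fosb was at 11.65 in E1 and 8.36 in E2, with 9.79 in M1 and 10.15 in M2, and Fos at 11.70, 9.77, 9.89 and 9.47. The phosphatase Dusp1, which is also induced by glucocorticoid, was at 10.94, 9.37, 12.43 and 11.24, and Klf2 at 9.52, 7.91, 8.31 and 9.82. E2 was the lowest line for Fosb, Dusp1 and Klf2. Egr3 was the exception, at 7.68 in E1 and 8.95 in E2.

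Most epithelial genes were close between the clones, and a few were at least 2-fold apart. Of 39 junction and identity genes (median 0.16) 3 were at least 2-fold higher in E2 and 1 lower, against 1.16% and 0.978% of all genes. These are few genes, and 36 of the 39 were detected, while all genes include many dim ones, so that the shares compare unlike sets. The 3 were Cldn4 and the epithelial transcription factors Elf3 and Ehf, with differences of 2.56, 1.19 and 1.16. The desmosomal cadherin Dsc2 was lower, at 10.51 in E1 and 8.17 in E2, with 5.37 in M1 and 5.06 in M2. Among milk protein genes Ltf (lactoferrin) was at 7.12 in E1 and 8.89 in E2, and the casein Csn1s1 at 4.80 and 6.33, still under the median of the file. Egfr, a receptor partner of ErbB2, was at 7.98 in E1 and 9.38 in E2, with 9.54 in M1 and 6.11 in M2. Of the 44 lists outside the interferon response, 40 had medians between -0.2 and 0.2, and in 14 of all lists no member differed by 2-fold.

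A shift of a small size ran along chromosome 17. With genes placed by the GRCm38.p6 annotation, the 579 detected genes of this chromosome had a median of -0.26, and 72.5% of them lay below the median of all detected genes, which was -0.03. The other chromosomes had medians from -0.13 for chromosome 14 to 0.12 for chromosome 15, with 24% to 65.4% of genes below. The shift was present along the whole chromosome 17. In its gene order, divided into 4 parts of similar number after the data were seen, the medians were -0.26, -0.24, -0.23 and -0.31. Chromosomes 6 and 15 were shifted the other way, with 24.4% and 24% of genes below the overall median and medians of 0.11 and 0.12. On chromosome 17 the medians of M1 minus E1 and M2 minus E1 were -0.01 and -0.14, and those of M1 minus E2 and M2 minus E2 were 0.15 and 0.04. DNA copy number was not measured on these arrays. The MHC genes lie on this chromosome, and Psmb8, Psmb9, Tap1, H2-Q4, H2-T10 and the kinase gene Eif2ak2 were among its 8 genes at least 2-fold higher in E2. The 12 at least 2-fold lower included Jmjd8, Dusp1 and Epas1 (HIF-2 alpha), named after its value was seen, at 8.91 in E1 and 6.66 in E2, with 6.62 in M1 and 8.32 in M2.

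**Figure D5:**
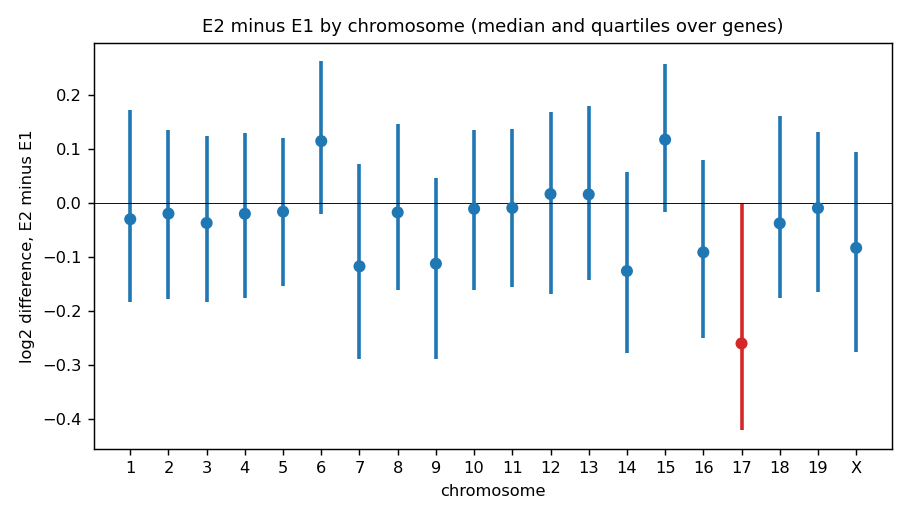
Points are the median log2 difference E2 minus E1 over the detected genes of each chromosome, and lines run from the lower to the upper quartile over genes, which is a spread between genes and no error of the median. Chromosome 17 (red) has the lowest median, -0.26, and chromosomes 6 and 15 the highest, 0.11 and 0.12.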

How the data were processed

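RNA of the 4 clonal lines was hybridised to Affymetrix MoGene 1.0 ST arrays, 1 per line. For the RNA, Trizol is named in the labels and a column kit in the methods. The deposited values are log2 expression levels (2.28 to 14.5) that the authors normalized from exported array files, and the labels name Partek without a version. Background correction and normalization are not given in the sources used here. The array medians lay between 6.75 and 6.85, and values were used as deposited.

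Of 35556 probe sets, 21789 are listed with 1 symbol, 1621 with several and 12146 with no gene. Symbols were checked by identifier against RefSeq for 19855 of 19938 genes, and 0 changed. Of several probe sets of a gene, the one with the highest mean over the 4 lines was used. Differences are E2 minus E1. With 1 array per line no test, SD or p-value is possible, and a fold of 2 or 4 is a size and no call. Precision is limited by the number of arrays. Of 17 genes at least 2-fold apart with several probe sets, 15 had all of them in 1 direction and 7 had all of them at least 2-fold apart in 1 direction.

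The comparison, the 51 gene lists (1249 genes, 1149 measured) and the rule for named genes were chosen with earlier results of these data known. Named genes are the 15 farthest apart in each direction with a level above the median of the file, list members at least 2-fold apart (at most 6 per list), all members of the interferon and MHC class I lists, cell type markers and members of runs. List genes without a named probe set were not analysed here. Promoters are those of RefSeq. Calculations used Python 3.11.15 with pandas 2.3.3, numpy 2.4.6 and statsmodels 0.14.6 and were tested on simulated data. The alternatives were quantile normalization, median centring, subtraction of an intensity trend, a floor at the median of the file, leaving out dim probe sets, averaging probe sets of a gene and using all probe sets.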

Additional observations from a re-analysis of the deposited data

How the results depend on the processing

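Under 7 alternatives 0 of the 137 genes that the naming rule chose as at least 2-fold apart changed direction. For some alternatives this was fixed in advance. A floor cannot reverse a direction, leaving out dim probe sets keeps the other values, and median centring moves every difference by the same small amount. The number no longer 2-fold apart was 15 with values raised to the median of the file, 5 with an intensity trend subtracted, 3 after quantile normalization, 1 with probe sets averaged and 0 otherwise. Interferon-stimulated genes at least 2-fold higher numbered 52 with the floor to 72 with all probe sets (58 as reported), and their median lay between 0.96 and 1.35. Probe sets at least 4-fold lower in E2 numbered 24 with the floor (43 as reported), because dim values were raised by construction. With all probe sets used, those with several symbols or none included, the number of probe sets at least 2-fold lower in E2 than in E1 was 1103 (206 as reported), and that of probe sets at least 4-fold lower in E2 than in E1 was 156 (43 as reported). The other counts stayed within 1.5 times. The list medians that moved by 0.1 or more were 12 with the floor, 5 without dim probe sets, 5 with all probe sets, 1 with averaging and 0 otherwise, of 49. The shift of chromosome 17, less the median of detected genes, lay between -0.21 and -0.23, an alternative added after seeing the data. Without repeat arrays none of these alternatives measures the error between cultures, and signal over background is not known.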

Other observations

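Probe sets with no gene listed differed between the clones more often than named ones, and mostly toward a lower level in E2. Of 12146 such probe sets 937 (7.71%) were at least 2-fold apart, with 65 higher and 872 lower in E2. Against E1, M1 was at least 2-fold higher in 210 and lower in 818, and M2 higher in 418 and lower in 308, so that E2 and M1 were low and E1 and M2 high in many of them. Of the 872, 542 had a mean level of E1 and E2 up to 6. At such levels 8.4% of these probe sets were at least 2-fold lower in E2 and 0.481% higher, from 6 to 8 the shares were 9.15% and 0.318%, and above 8 they were 1.65% and 0.941%. Among probe sets with 1 symbol the share at least 2-fold lower was 0.211% at a mean level up to 6, 1.78% from 6 to 8 and 0.919% above 8. What these probe sets measure is not listed in the annotation used, and their part in the gene differences was not tested.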
